A study of Homo sapiens with 6 samples.

Results

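The genes described here encode proteins of the RNA splicing machinery, the SR proteins, the heterogeneous nuclear ribonucleoproteins (hnRNPs) and the proteins of the small nuclear ribonucleoproteins (snRNPs). They were taken by symbol alone, as every row named SRSF with a digit, HNRNP, SF3A or SF3B, SNRNP, SNRP, PRPF, U2AF, or LSM with a digit. The rule uses no measured value, but it was set with earlier results of these data known. The rule took 93 of the 33095 genes listed in both tables. Of these, 91 fell into 10 classes by textbook role, and the other 2 were HNRNPUL2-BSCL2, a readthrough of HNRNPUL2 into its neighbour, and the pseudogene HNRNPA1P33. The cells were MM.1S, an established human line grown from multiple myeloma, the cancer of antibody-secreting plasma cells. Lentivirus brought in a scramble control hairpin in 1 group and, in the other groups, shRNA 1 or shRNA 2, each directed against IRF3, a transcription factor activated by nucleic acid sensing. Each of the 3 groups had 2 libraries of poly(A)-selected RNA, and no group was without lentivirus. Single libraries have no values in the tables, so a level is given below as the mean of a group, reconstructed from the mean over all libraries and both fold changes.

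Splicing removes introns in steps that these classes divide among themselves. U1 snRNP marks the 5′ splice site, U2AF and U2 snRNP mark the 3′ splice site and the branch point, and the U4/U6.U5 tri-snRNP then joins and is rearranged into the active enzyme. SR proteins mostly favour the use of an exon and hnRNPs often oppose it, and many genes of both families limit their own output by splicing in an exon that sends the transcript to nonsense-mediated decay. Myeloma and other plasma cells process very large amounts of immunoglobulin transcript. The tables count reads per gene, so neither splicing itself nor the use of such exons was measured.

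Promoter bases of 6 members are printed first, because the classes differed in the short motifs that their promoters hold. Each line gives the 200 bases before the RefSeq start on GRCh38.p14, read 5′ to 3′ on the gene's strand, with capitals for a match to any of the 10 motifs searched. SNRPA1, SF3B6 and SF3B2 belong to U2 snRNP, and HNRNPA0, HNRNPA2B1 and HNRNPF are hnRNPs. Their intervals are chr15:101295249-101295448 (minus strand), chr2:24076327-24076526 (minus strand), chr11:66052164-66052363 (plus strand), chr5:137754364-137754563 (minus strand), chr7:26200747-26200946 (minus strand) and chr10:43408858-43409057 (minus strand).
SNRPA1: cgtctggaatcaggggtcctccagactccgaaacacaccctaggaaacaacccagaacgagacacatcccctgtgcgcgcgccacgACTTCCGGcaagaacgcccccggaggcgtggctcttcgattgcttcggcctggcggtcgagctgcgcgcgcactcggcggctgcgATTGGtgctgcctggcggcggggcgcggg
SF3B6: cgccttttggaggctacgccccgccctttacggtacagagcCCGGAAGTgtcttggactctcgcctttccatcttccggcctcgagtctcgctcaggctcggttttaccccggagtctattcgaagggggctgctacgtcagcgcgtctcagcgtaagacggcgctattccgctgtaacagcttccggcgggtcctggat
SF3B2: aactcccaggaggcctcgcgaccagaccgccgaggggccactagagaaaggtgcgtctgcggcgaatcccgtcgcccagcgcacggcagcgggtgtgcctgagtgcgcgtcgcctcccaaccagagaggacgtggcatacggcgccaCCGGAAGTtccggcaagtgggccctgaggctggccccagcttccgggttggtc
HNRNPA0: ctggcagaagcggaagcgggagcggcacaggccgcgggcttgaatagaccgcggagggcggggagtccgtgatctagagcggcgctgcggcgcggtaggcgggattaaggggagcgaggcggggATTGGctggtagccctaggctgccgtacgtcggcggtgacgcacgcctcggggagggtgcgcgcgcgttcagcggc
HNRNPA2B1: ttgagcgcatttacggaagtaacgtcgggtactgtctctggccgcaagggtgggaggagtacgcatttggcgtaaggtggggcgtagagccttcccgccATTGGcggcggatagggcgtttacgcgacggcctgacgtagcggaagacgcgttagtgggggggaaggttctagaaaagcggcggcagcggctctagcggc
HNRNPF: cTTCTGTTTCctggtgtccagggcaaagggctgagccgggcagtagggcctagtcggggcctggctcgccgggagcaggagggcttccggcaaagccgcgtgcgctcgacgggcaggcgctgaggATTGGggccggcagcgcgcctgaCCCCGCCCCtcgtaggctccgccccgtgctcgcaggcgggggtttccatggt

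The U2 snRNP promoters printed above each hold CCGGAAGT, the core of the site of ETS transcription factors, on one strand or the other. The hnRNP promoters printed each hold CCAAT, the site of the factor NF-Y, as does SNRPA1 next to its ETS core, and HNRNPF also holds matches to GAAANNGAA and GGGGCGGGG. The printed promoters are examples, and others of the same classes differ. In windows of the same length, SF3B1 and U2AF1 hold no CCGGAAGT, and HNRNPK and HNRNPM hold no CCAAT. Over the whole RefSeq promoter windows, which run a little past the start and were found for 78 of the 91 classed members, CCGGAAGT occurred in 8 of 13 genes of the U2 class (61.5%) and in 1 of 20 hnRNP genes. CCAAT went the other way, in 13 of 20 hnRNP genes (65.0%) and in 2 of 13 of the U2 class (15.4%). Among the promoters of 9410 expressed genes, those with a mean of at least 50, the shares were 9.56% for CCGGAAGT and 37.3% for CCAAT, and among all 27305 promoters they were 4.44% and 35.7%. The motif GAAANNGAA, a tandem core of interferon regulatory factors, occurred in 7 of 78 member promoters (8.97%), against 6.60% for genes with a mean of 50 or more and 8.29% of all promoters. Its relative GGAANNGAA, the composite core of ETS and IRF factors, occurred in 8 (10.3%, against 7.66% and 7.84%). The other motifs were CGCATGCG, AANATGGCG, GGGGCGGGG, TTTCCCGC, CACGTG and TGACGTCA, all read on both strands, and CCGGAAGT and GGAANNGAA can overlap. Among the 34 promoters of members lower with shRNA 2, 17 held CCAAT and 6 held CCGGAAGT, against 18 and 10 of the 44 others. A match of letters is a description of the promoter and shows no binding.

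Facts of the series that bear on the results are few. The log2 fold change of IRF3 itself in the authors' deposited tables was -1.53 ± 0.10 with shRNA 1 and -0.18 ± 0.10 with shRNA 2, where the value after ± is the standard error (SE) here and below, with DESeq2 adjusted p-values of 8.45e-46 and 0.181. A fall of the targeted transcript was therefore not shown in the libraries labelled shRNA 2, and directions for shRNA 2 below are those of libraries labelled so. All 9 plasma cell markers searched were present, with deposited means from 1665 (CD38) to 31453 (JCHAIN), and the B cell markers MS4A1 and PAX5 had means of 3.82 and 9.51. Among the T cell, myeloid and fibroblast markers the largest means were 57.1 (CD3E) and 33.2 (COL1A1). Plasma cell marker levels were not stable. IRF4 was at -1.21 ± 0.08 with shRNA 1 and -1.87 ± 0.08 with shRNA 2, and XBP1 at -0.83 ± 0.09 and -1.15 ± 0.09. CD38 was at 0.27 ± 0.15 and 0.89 ± 0.15, and SDC1 at 0.28 ± 0.09 and -0.20 ± 0.09. The mean normalised read counts sum to 25062897 and the members hold 1.502% of them, while the depth of each library is unknown. Nothing in the labels tells if both libraries of a group came from separate cultures, so the p-values measure only a spread between libraries that may be technical. The SE of a member's log2 fold change had a median of 0.0985 with shRNA 1 and 0.0996 with shRNA 2. In bulk RNA, fewer cells with a transcript and less of it per cell cannot be told apart.

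With shRNA 1 the splicing factor genes as a whole stayed close to the background of all genes, and a few single genes moved far. HNRNPF and HNRNPUL1 fell, to 0.297 and 0.342 times the scramble level, and SNRPA1 and SNRPB rose, to 2.24 and 1.80 times. At a DESeq2 adjusted p below 0.05 in the authors' deposited table, 25 of 91 tested members were called (27.5%), 11 higher and 14 lower, against 24.6% of all 14488 genes tested. The shares by direction were 12.1% higher, against 9.80% of all genes, and 15.4% lower, against 14.8%. Among the 70 members with a mean of 1000 or more, 23 were called (32.9%), fewer than the 39.4% of all 5147 genes that abundant. Of these members 15.7% were higher, against 16.0%, and 17.1% lower, against 23.4%. The median log2 fold change of the tested members was 0.05 and that of all tested genes was -0.03, computed from the authors' deposited table. Recentring on the median gene took the median of the 12977 genes with a mean of 50 or more, which was -0.04 in both tables. This turned the split with shRNA 1 to 14 higher and 13 lower. Over all tested genes the median with shRNA 2 was -0.00, so recentring there depends on the set of genes used.

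With shRNA 2 many members were lower by a modest amount, from most classes of the machinery. In the authors' deposited table, 47 of 92 tested members were called (51.1%) at a DESeq2 adjusted p below 0.05, against 29.0% of all 17054 genes tested. Of these, 39 were lower (42.4%, against 18.1% of all genes) and 8 higher (8.70%, against 10.9%). The members' median log2 fold change was -0.21 and that of all tested genes -0.00. Called members that changed by a factor of 2 or more were 2 of 92, a smaller share than the 1367 of 17054 genes. At a factor of 1.5 or more they were 15 of 92, close to the share of all genes, 2714 of 17054. Abundant genes are called more often, and 70 members had a mean of 1000 or more. Among these, 38 were called (54.3%), against 46.9% of all 5147 genes that abundant, a smaller gap than over all means. By direction, 31 were lower (44.3%, against 29.8%) and 7 were higher (10.0%, against 17.1%).

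**Figure D1:**
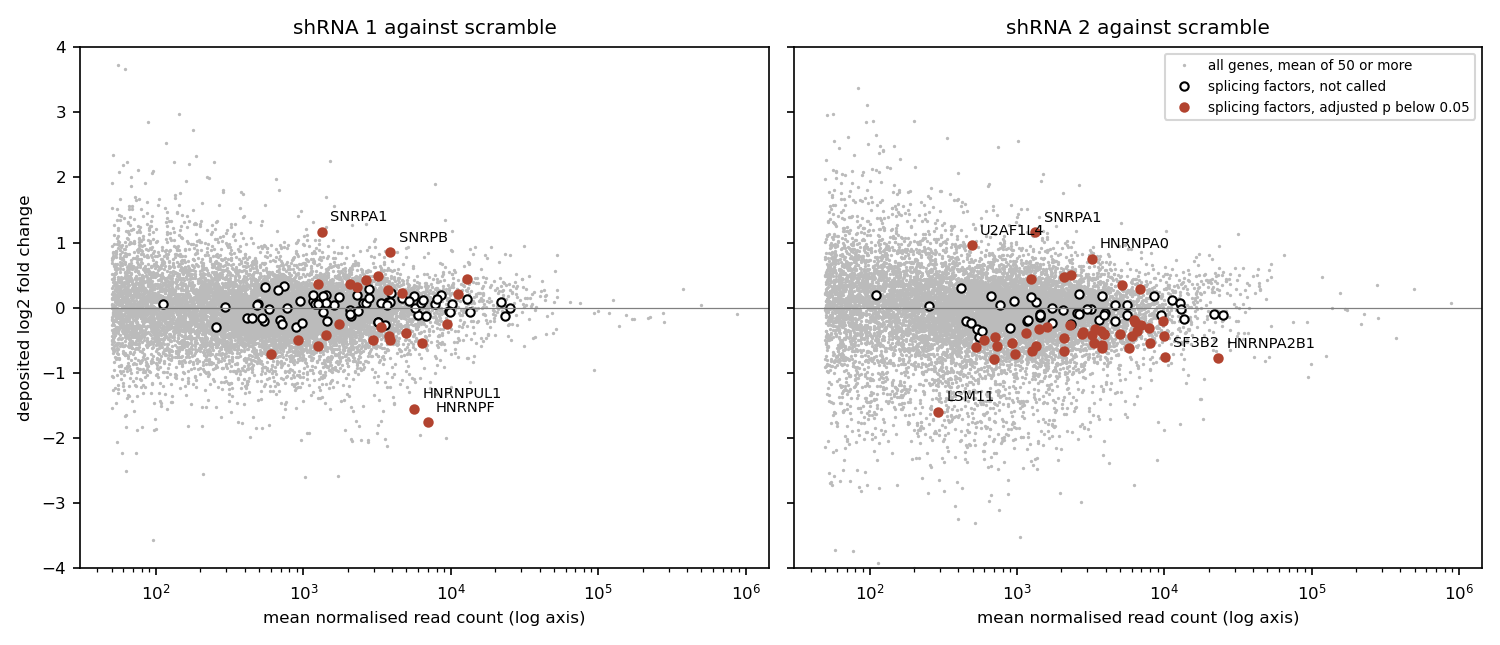
Deposited log2 fold change (vertical axis) against mean normalised read count (log horizontal axis) for all 12977 genes with a mean of 50 or more in grey and the splicing factor genes as circles, filled in red where the DESeq2 adjusted p is below 0.05; 2 grey genes with shRNA 1 and 5 with shRNA 2 lie outside the axis. HNRNPF and HNRNPUL1 lie far below the other members with shRNA 1, and 39 filled circles lie below 0 with shRNA 2.

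The hairpins were also compared with each other, a difference in which the scramble libraries cancel. In a two-sided z test adjusted over all 14488 genes, 38 of 91 members differed between the hairpins (41.8%, against 24.0% of all genes). With shRNA 2, 29 were lower than with shRNA 1 (31.9%, against 13.8%) and 9 were higher (9.89%, against 10.1%). The median log2 of shRNA 2 over shRNA 1 was -0.17 over the members and 0.00 over all tested genes. Among members with a mean of 1000 or more, 47.1% differed, against 38.6% of all genes that abundant, and 35.7% were lower, against 21.9%. With the part of the error that the shared control adds taken out, 39 of the 91 members were lower and 11 higher. Of all 14488 genes, 3100 were then lower (21.4%) and 2615 higher (18.0%). So the members' share was larger for lower calls and smaller for higher calls.

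**Figure D2:**
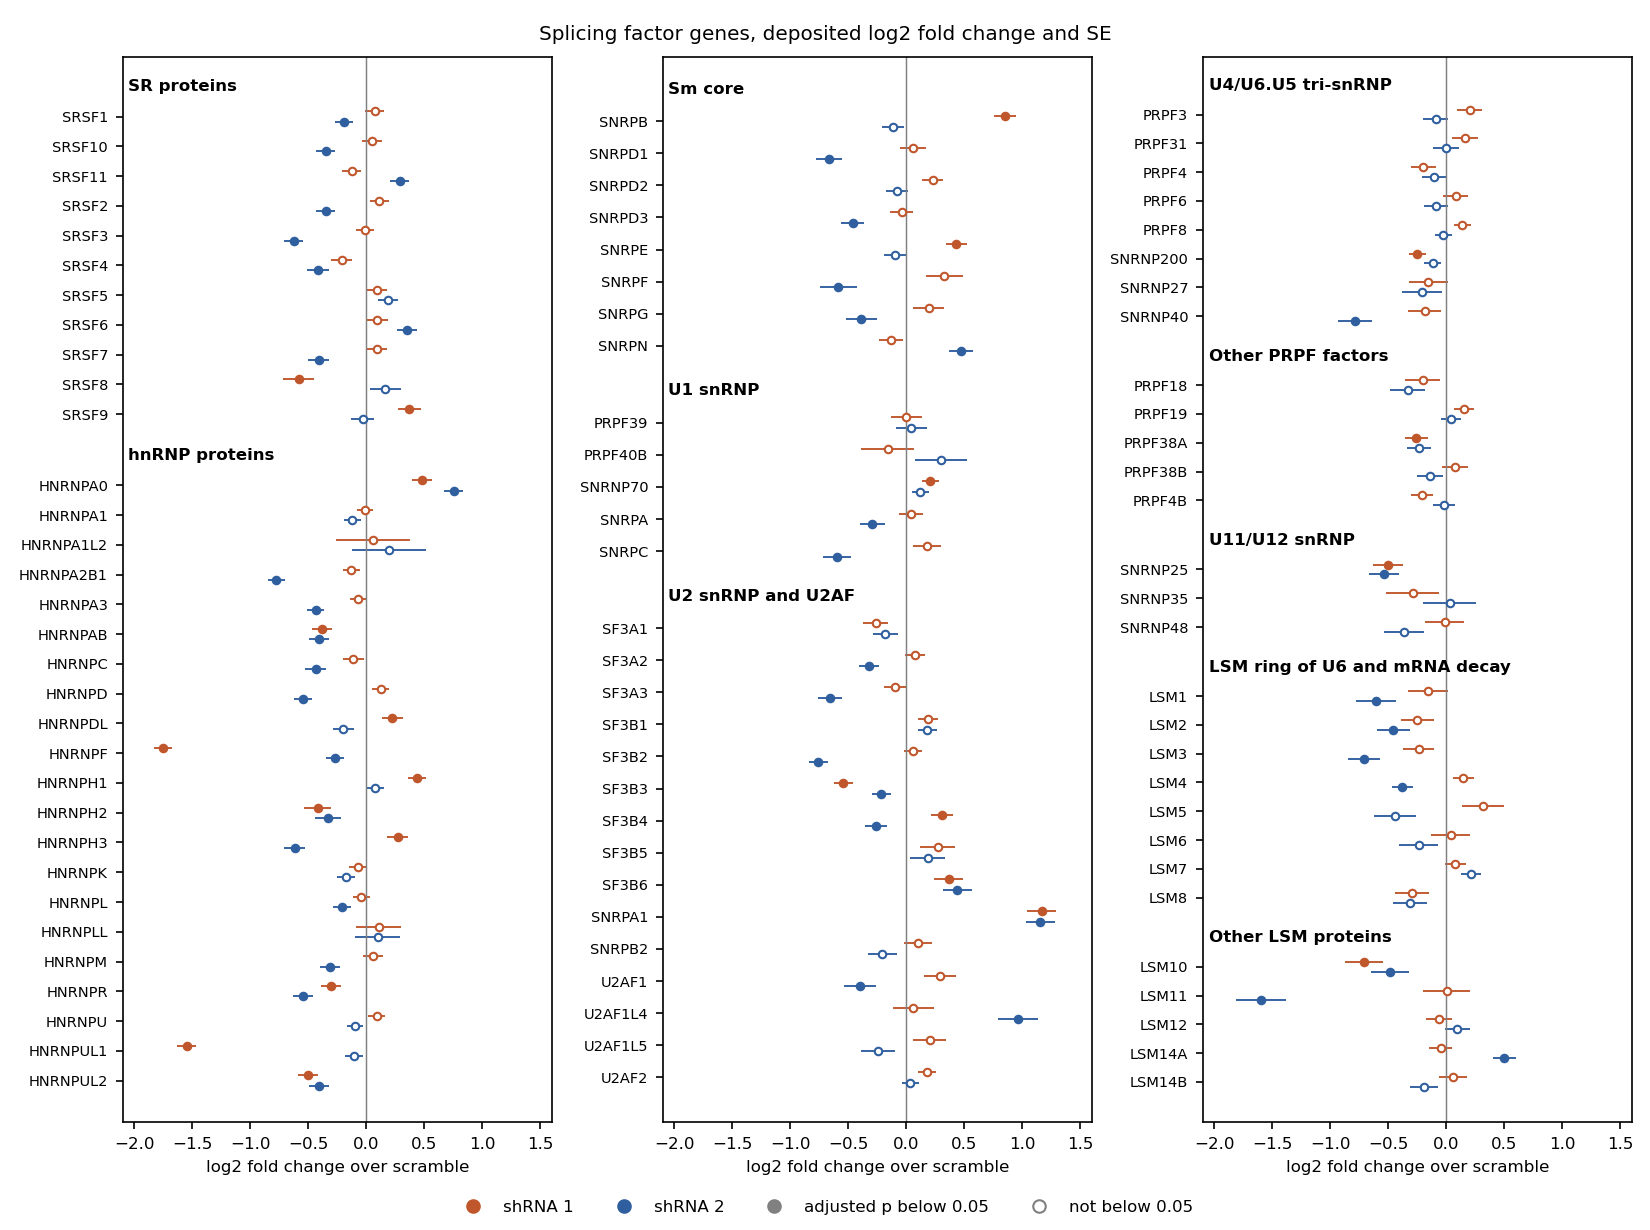
Deposited log2 fold change over scramble (horizontal axis, bars are SE) of 89 classed splicing factor genes, by class, for shRNA 1 in orange and shRNA 2 in blue, with filled points at a DESeq2 adjusted p below 0.05; SRSF12, with a mean of 12.7, and 1 gene not reported here are left out. Blue points lie left of 0 in most classes, while orange points lie mostly near 0 apart from HNRNPF, HNRNPUL1, SNRPA1 and SNRPB.

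The hnRNPs coat nascent transcripts and act on splicing, export and stability. Among the 21 of them, shRNA 1 gave 4 higher and 6 lower (47.6% called), by the authors' deposited tables. With shRNA 2, 1 was higher and 12 lower (61.9% called). For this class and those below, the shares of all genes called were 24.6% with shRNA 1 and 29.0% with shRNA 2. Among all genes with a mean of 1000 or more they were 39.4% and 46.9%, and the median mean of the hnRNP genes was 5997. HNRNPF (ENSG00000169813, chromosome 10, 43385617 to 43409166), which binds runs of G and acts beside HNRNPH1, had reconstructed means of 9794 in scramble, 2905 with shRNA 1 and 8139 with shRNA 2. Its level with shRNA 1 stood far below both others. The authors' deposited tables give log2 fold changes of -1.75 ± 0.08 with shRNA 1 and -0.27 ± 0.08 with shRNA 2, with DESeq2 adjusted p-values of 2.23e-108 and 0.00262. It was 2.80 times as high with shRNA 2 as with shRNA 1 (95% interval 2.42 to 3.25). HNRNPUL1 (ENSG00000105323, chromosome 19, 41262496 to 41307598), a relative of HNRNPU with a role in the DNA damage response, had reconstructed means of 7431 in scramble, 2541 with shRNA 1 and 6898 with shRNA 2. It likewise was low with shRNA 1 alone, at -1.55 ± 0.08 with an adjusted p of 6.75e-77 by DESeq2, against -0.11 ± 0.08 with shRNA 2, which did not pass (0.355), in the authors' deposited tables.

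The close relatives of HNRNPF moved in different ways. HNRNPH1 rose with shRNA 1, from a reconstructed mean of 11281 to 15258, at 0.44 ± 0.08 with an adjusted p of 3.31e-07 by DESeq2 in the authors' deposited table, and was 0.08 ± 0.08 with shRNA 2. HNRNPH3 had reconstructed means of 3948 in scramble, 4759 with shRNA 1 and 2572 with shRNA 2, so it was highest with shRNA 1 and lowest with shRNA 2. It passed in opposite directions in the authors' deposited tables, at 0.27 ± 0.09 and -0.62 ± 0.09, with DESeq2 adjusted p-values of 0.0167 and 4.02e-10. HNRNPH2, on the X chromosome, was lower in both deposited tables, at -0.42 ± 0.11 and -0.33 ± 0.11.

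HNRNPA0 (ENSG00000177733, chromosome 5, 137745651 to 137754376), which binds AU-rich elements, was the 1 hnRNP that rose with shRNA 2. Its reconstructed means were 2366 in scramble, 3297 with shRNA 1 and 3986 with shRNA 2, lowest in scramble. In the authors' deposited tables its log2 fold changes were 0.48 ± 0.09 and 0.75 ± 0.09, with DESeq2 adjusted p-values of 4.97e-07 and 5.67e-17. HNRNPA2B1 (ENSG00000122566, chromosome 7, 26173057 to 26201529), an abundant core hnRNP, had reconstructed means of 27803 in scramble, 25438 with shRNA 1 and 16234 with shRNA 2, and the shRNA 2 level stood apart. Its fold changes in the authors' deposited tables were -0.13 ± 0.07, not passing, and -0.78 ± 0.07, with an adjusted p of 3.14e-24 by DESeq2 for the latter. Its paralogue HNRNPA1 had reconstructed means of 25742 in scramble, 25572 with shRNA 1 and 23702 with shRNA 2 and passed in neither table, at -0.01 ± 0.07 and -0.12 ± 0.07; reads of HNRNPA1 can be shared with its many processed copies, of which HNRNPA1L2 and HNRNPA1P33 are listed.

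HNRNPD, also called AUF1 and a factor of mRNA decay, fell with shRNA 2 at -0.54 ± 0.07 (adjusted p of 8.78e-12 by DESeq2, authors' deposited table) and was 0.13 ± 0.07 with shRNA 1. HNRNPR was lower in both authors' deposited tables, at -0.30 ± 0.09 and -0.54 ± 0.09, as was HNRNPAB at -0.38 ± 0.09 and -0.40 ± 0.09. HNRNPUL2 was lower in both as well, at -0.50 ± 0.09 and -0.41 ± 0.09; its readthrough HNRNPUL2-BSCL2 shares 44.1% of the exon bases of HNRNPUL2 and was at -0.44 ± 0.10 and -0.58 ± 0.10, so the split of their reads is uncertain. HNRNPA3, HNRNPC, HNRNPL and HNRNPM passed as lower with shRNA 2 alone, between -0.44 (HNRNPC) and -0.21 (HNRNPL) in the authors' deposited table. On recentring HNRNPL no longer passed. HNRNPDL passed as higher with shRNA 1 alone, at 0.23 ± 0.09, a call lost with no filter on low genes. HNRNPK, HNRNPU, HNRNPLL and HNRNPA1L2 passed in neither, and the poly(C)-binding HNRNPK and the scaffold HNRNPU had reconstructed means of 14327 in scramble, 13639 with shRNA 1 and 12683 with shRNA 2 and of 21838 in scramble, 23227 with shRNA 1 and 20407 with shRNA 2.

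**Figure D3:**
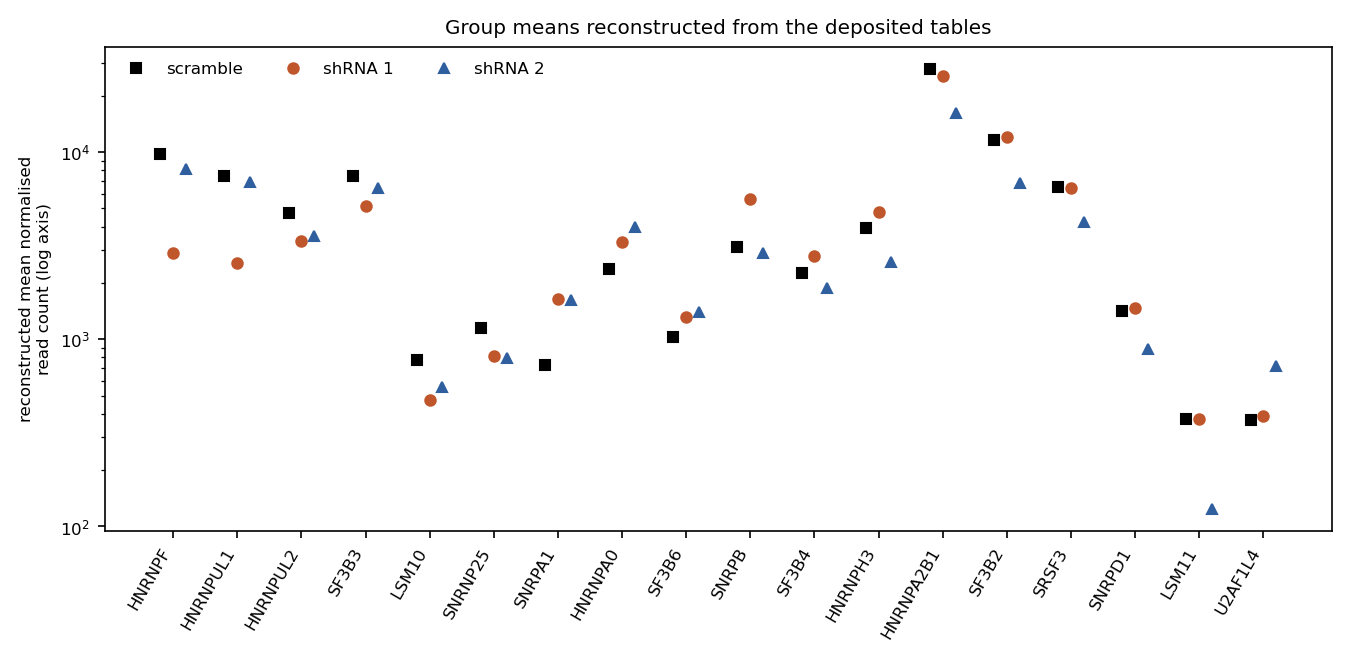
Mean normalised read count of each group (log vertical axis), reconstructed from the authors' deposited mean and fold changes, for 18 members with scramble as squares, shRNA 1 as circles and shRNA 2 as triangles; the tables give no spread between libraries, so no error bar is drawn. The circle stands apart for HNRNPF, HNRNPUL1 and SNRPB, the triangle for HNRNPA2B1, SF3B2, SRSF3, SNRPD1, LSM11 and U2AF1L4, and the square for SNRPA1.

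SR proteins carry a domain rich in arginine and serine and bind exonic enhancers. Of 12 genes, 11 were tested with shRNA 1, of which 1 was higher and 1 lower (18.2% called). With shRNA 2, 12 were tested, of which 2 were higher and 6 lower (66.7% called), per the authors' deposited tables. SRSF3 (ENSG00000112081, chromosome 6, 36594353 to 36605600), the smallest family member and an adaptor of mRNA export, had reconstructed means of 6509 in scramble, 6461 with shRNA 1 and 4219 with shRNA 2. Scramble and shRNA 1 were nearly level and shRNA 2 was lower. The authors' deposited tables give -0.01 ± 0.08 and -0.63 ± 0.08, with DESeq2 adjusted p-values of 0.954 and 6.46e-13, and the hairpins differed by -0.62 ± 0.12 (z test adjusted p of 2.03e-06). SRSF2, SRSF4, SRSF7 and SRSF10 fell with shRNA 2 as well, between -0.41 (SRSF4) and -0.35 (SRSF2), and did not pass with shRNA 1, where they were between -0.21 and 0.11 in the authors' deposited tables. Of the exon bases of SRSF2, 36.7% lie opposite MFSD11. SRSF1, the founding member, was on the threshold with shRNA 2, at -0.19 ± 0.08 with an adjusted p of 0.04996 by DESeq2 in the authors' deposited table. On recentring, or with no filter on low genes, SRSF1 no longer passed, and 56.6% of the annotated exon bases of SRSF1 are shared with an overlapping gene model.

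SRSF6 and SRSF11 rose with shRNA 2, at 0.35 ± 0.09 and 0.29 ± 0.08 with DESeq2 adjusted p-values of 0.000382 and 0.00173 in the authors' deposited table. SRSF11 had reconstructed means of 6515 in scramble, 5972 with shRNA 1 and 7948 with shRNA 2. SRSF8, a gene that arose as a retrocopy in the SRSF2 lineage, was low with shRNA 1 alone, at 1346 in scramble, 899 with shRNA 1 and 1506 with shRNA 2. It had -0.58 ± 0.14 with shRNA 1 in the authors' deposited table (adjusted p of 0.000183 by DESeq2), and the hairpins differed by 0.74 ± 0.19 (z test adjusted p of 0.000831). SRSF9 was the 1 SR gene that rose with shRNA 1, at 0.37 ± 0.10, although 46.2% of its exon bases lie opposite GATC and strand use in the counting is not given. SRSF5 passed in neither, at 0.09 ± 0.09 and 0.19 ± 0.09 in the authors' deposited tables, and SRSF12, with a mean of 12.7 reads, had no adjusted p with shRNA 1 and did not pass with shRNA 2. Recentred, SRSF5 passed as higher with shRNA 2, at 0.23.

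The Sm proteins form the ring around each spliceosomal snRNA. With shRNA 1, 2 of the 8 genes were higher and 0 lower (25.0% called), per the authors' deposited tables. With shRNA 2, 1 was higher and 4 lower (62.5% called). Between the hairpins 7 of the 8 passed the z test (87.5%, against 24.0% of all genes). Of these, 6 were lower and 1 higher with shRNA 2 than with shRNA 1, and the median difference of the class was -0.55. SNRPB (ENSG00000125835, chromosome 20, 2461634 to 2470853), which encodes SmB and SmB′, had reconstructed means of 3130 in scramble, 5645 with shRNA 1 and 2889 with shRNA 2, and only the shRNA 1 level stood apart. The authors' deposited tables give 0.85 ± 0.09 and -0.12 ± 0.09, with DESeq2 adjusted p-values of 1.37e-18 and 0.401. Its close relative SNRPN, an imprinted gene expressed from the paternal copy, showed the reverse order, with reconstructed means of 1898 in scramble, 1733 with shRNA 1 and 2633 with shRNA 2. SNRPN was at -0.13 ± 0.11 and 0.47 ± 0.10 in the authors' deposited tables (adjusted p of 4.74e-05 by DESeq2 with shRNA 2), and it shares 23.8% of its exon bases with SNURF.

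SNRPE, the other Sm gene that rose with shRNA 1, was at 0.43 ± 0.09 with an adjusted p of 4.25e-05 by DESeq2 and at -0.10 ± 0.09 with shRNA 2 in the authors' deposited tables. SNRPD1, SNRPD3, SNRPF and SNRPG fell with shRNA 2. SNRPD1 had reconstructed means of 1417 in scramble, 1476 with shRNA 1 and 893 with shRNA 2 and a deposited log2 fold change of -0.67 ± 0.11 (adjusted p of 7.92e-08 by DESeq2, authors' table). The other 3 lay between -0.59 (SNRPF) and -0.39 (SNRPG), and with shRNA 1 the same 4 genes were between -0.04 and 0.33 without passing, per the authors' deposited tables. SNRPD2 passed in neither table and did not pass between the hairpins, at -0.31 ± 0.13. Recentred, SNRPD2 passed as higher with shRNA 1, at 0.27.

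U1 snRNP carries SNRNP70, SNRPA and SNRPC, and further proteins such as PRPF39 associate with it. With shRNA 1, 1 of 6 genes was higher and 1 lower (33.3% called), per the authors' deposited tables. With shRNA 2, 2 were lower and 0 higher (33.3% called). SNRPC, which steadies the pairing of U1 with the 5′ splice site, had reconstructed means of 1458 in scramble, 1650 with shRNA 1 and 965 with shRNA 2. It fell with shRNA 2 at -0.60 ± 0.12 (adjusted p of 9.39e-06 by DESeq2), and SNRPA fell at -0.29 ± 0.11, in the authors' deposited table. On recentring SNRPA no longer passed. SNRNP70 rose by a small amount with shRNA 1, at 0.21 ± 0.07 (adjusted p of 0.0216 by DESeq2), and was 0.12 ± 0.07 with shRNA 2. PRPF39 and PRPF40B passed in no comparison, and 28.0% of the exon bases of PRPF40B lie opposite FMNL3.

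The U2 class, 15 genes of U2 snRNP and U2AF, recognises the branch point and the 3′ splice site. With shRNA 1, 3 were higher and 1 lower, and with shRNA 2, 3 were higher and 6 lower, per the authors' deposited tables. SNRPA1 (ENSG00000131876, chromosome 15, 101281510 to 101295282), the U2 A′ protein that sits with SNRPB2 on a stem-loop of U2 snRNA, had reconstructed means of 733 in scramble, 1644 with shRNA 1 and 1632 with shRNA 2. Both hairpin groups stood well above scramble, at 2.24 and 2.23 times its level, and nearly level with each other. The authors' deposited tables give 1.17 ± 0.12 and 1.16 ± 0.12, with DESeq2 adjusted p-values of 1.14e-18 and 1.21e-18. The ratio of the hairpins was 0.993, with a 95% interval of 0.781 to 1.26. Its partner SNRPB2 passed in neither table, at 0.10 ± 0.12 and -0.21 ± 0.12. The comparisons share the scramble libraries, so a low value in scramble would appear in both.

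The SF3B subunits of U2 snRNP did not move as 1 unit. SF3B2 (ENSG00000087365, chromosome 11, 66050729 to 66069308), which contacts the pre-mRNA near the branch point, had reconstructed means of 11554 in scramble, 12016 with shRNA 1 and 6830 with shRNA 2, so that shRNA 2 was low and the other groups nearly level. Its fold changes in the authors' deposited tables were 0.06 ± 0.08 and -0.76 ± 0.08, with DESeq2 adjusted p-values of 0.695 and 3.83e-19. SF3B3 was lower in both, at -0.54 ± 0.08 and -0.22 ± 0.08 in the authors' deposited tables, and its call with shRNA 2 was lost on recentring and without the filter on low genes. SF3B4 passed in opposite directions, at 0.31 ± 0.09 and -0.26 ± 0.10 (DESeq2 adjusted p-values of 0.00662 and 0.0237, authors' deposited tables), the latter call being lost on recentring. SF3B6, the branch point contact also called p14, was higher in both, at 0.36 ± 0.13 and 0.44 ± 0.13. SF3B1, the large scaffold that is mutated in some blood cancers, had reconstructed means of 7812 in scramble, 8899 with shRNA 1 and 8849 with shRNA 2 and passed in neither, at 0.19 ± 0.08 and 0.18 ± 0.08. Recentred on the median gene, SF3B1 passed as higher in both, at 0.23 and 0.22. SF3B5 passed in neither.

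Of the SF3A subunits, SF3A3 and SF3A2 fell with shRNA 2, at -0.66 ± 0.10 and -0.32 ± 0.09 (DESeq2 adjusted p-values of 8.4e-10 and 0.00138, authors' deposited table), and were -0.10 and 0.07 with shRNA 1 without passing. SF3A1 passed in neither, at -0.26 ± 0.11 and -0.18 ± 0.11. U2AF2, the large subunit that reads the polypyrimidine tract, had reconstructed means of 5322 in scramble, 6024 with shRNA 1 and 5452 with shRNA 2 and passed in neither, although recentred it passed as higher with shRNA 1, at 0.22. The small subunit U2AF1, which reads the AG of the 3′ splice site, was at 0.29 ± 0.14 and -0.40 ± 0.14 in the authors' deposited tables (adjusted p of 0.0172 by DESeq2 with shRNA 2). U2AF1L5, a near-identical second copy in this build, took a mean of 2321 reads against 2766 for U2AF1, so the division between them is uncertain; it was at 0.20 ± 0.14 and -0.24 ± 0.15 and passed in neither. U2AF1L4, a shorter paralogue, rose with shRNA 2, with reconstructed means of 372 in scramble, 388 with shRNA 1 and 723 with shRNA 2 and a log2 fold change of 0.96 ± 0.17 (adjusted p of 3.39e-07 by DESeq2) in the authors' deposited table. Of the exon bases of U2AF1L4, 24.8% are shared with the gene model AD000671.2 and 11.5% with PSENEN on the opposite strand.

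Few of the tri-snRNP proteins and the remaining PRPF factors passed. Of 8 tri-snRNP genes, 1 was lower in each of the authors' deposited tables and 0 higher. The gene was not the same: the helicase SNRNP200 was lower with shRNA 1, at -0.25 ± 0.07 (adjusted p of 0.00398 by DESeq2), and the U5 protein SNRNP40 with shRNA 2, at -0.79 ± 0.15 (1.42e-06). PRPF8, the protein at the catalytic centre, had reconstructed means of 12560 in scramble, 13813 with shRNA 1 and 12346 with shRNA 2. It passed in neither table, and the ratio of each hairpin to scramble had 95% intervals of 0.998 to 1.21 and 0.892 to 1.08. PRPF3, PRPF4, PRPF6, PRPF31 and SNRNP27 passed in no comparison, between -0.20 (PRPF4) and 0.20 (PRPF3) with shRNA 1 and between -0.21 (SNRNP27) and 0.00 (PRPF31) with shRNA 2, per the authors' deposited tables. Of the 5 other PRPF factors, PRPF38A was lower with shRNA 1, at -0.26 ± 0.10 (adjusted p of 0.0451 by DESeq2, authors' deposited table), a call lost on recentring and without the filter on low genes. PRPF18, PRPF19, PRPF38B and PRPF4B passed in no comparison. With shRNA 2, 0 of these 5 genes passed by DESeq2, while PRPF18 and PRPF38A had an unadjusted p below 0.05.

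Among the proteins of the U11/U12 snRNP, which serves the minor class of introns, SNRNP25 was lower in both of the authors' deposited tables. Its reconstructed means were 1152 in scramble, 812 with shRNA 1 and 794 with shRNA 2, and its log2 fold changes -0.50 ± 0.13 and -0.54 ± 0.13, with DESeq2 adjusted p-values of 0.00108 and 0.000318. SNRNP35 and SNRNP48 passed in neither.

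The LSM1 to LSM8 proteins form rings, of which the nuclear one binds U6 snRNA and the cytoplasmic one, with LSM1 in place of LSM8, acts in mRNA decay. With shRNA 1, 0 of the 8 genes passed by DESeq2 in the authors' deposited table, and 1, LSM8, had an unadjusted p below 0.05. With shRNA 2, 4 were lower and 0 higher. LSM3 had reconstructed means of 1187 in scramble, 1005 with shRNA 1 and 727 with shRNA 2 and a log2 fold change of -0.71 ± 0.14 (adjusted p of 2.23e-06 by DESeq2), and LSM1, LSM2 and LSM4 were at -0.60, -0.46 and -0.38 in the authors' deposited table. LSM5, LSM6, LSM7 and LSM8 did not pass with shRNA 2, and LSM7 was the 1 ring gene above 0, at 0.21 ± 0.09. Recentred, LSM7 passed as higher with shRNA 2, at 0.25, which makes the ring 4 lower and 1 higher. LSM4 and LSM5 were lower with shRNA 2 than with shRNA 1, by z test differences of -0.52 ± 0.13 and -0.76 ± 0.26.

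LSM10 and LSM11 replace a pair of Sm proteins in U7 snRNP, which cuts the 3′ end of histone transcripts. LSM11 (ENSG00000155858, chromosome 5, 157743695 to 157760709) had reconstructed means of 375 in scramble, 376 with shRNA 1 and 124 with shRNA 2, level in scramble and shRNA 1 and lower with shRNA 2. Its log2 fold changes were 0.00 ± 0.20 and -1.60 ± 0.21 in the authors' deposited tables (adjusted p of 2.44e-12 by DESeq2 with shRNA 2), the lowest of any tested member with that hairpin. LSM10 was lower in both, with reconstructed means of 778 in scramble, 476 with shRNA 1 and 554 with shRNA 2 and log2 fold changes of -0.71 ± 0.17 and -0.49 ± 0.16 in the authors' deposited tables. LSM14A, a protein of P bodies, rose with shRNA 2, at 0.50 ± 0.10 (adjusted p of 8.27e-06 by DESeq2), while LSM14B and LSM12 passed in neither.

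**Figure D4:**
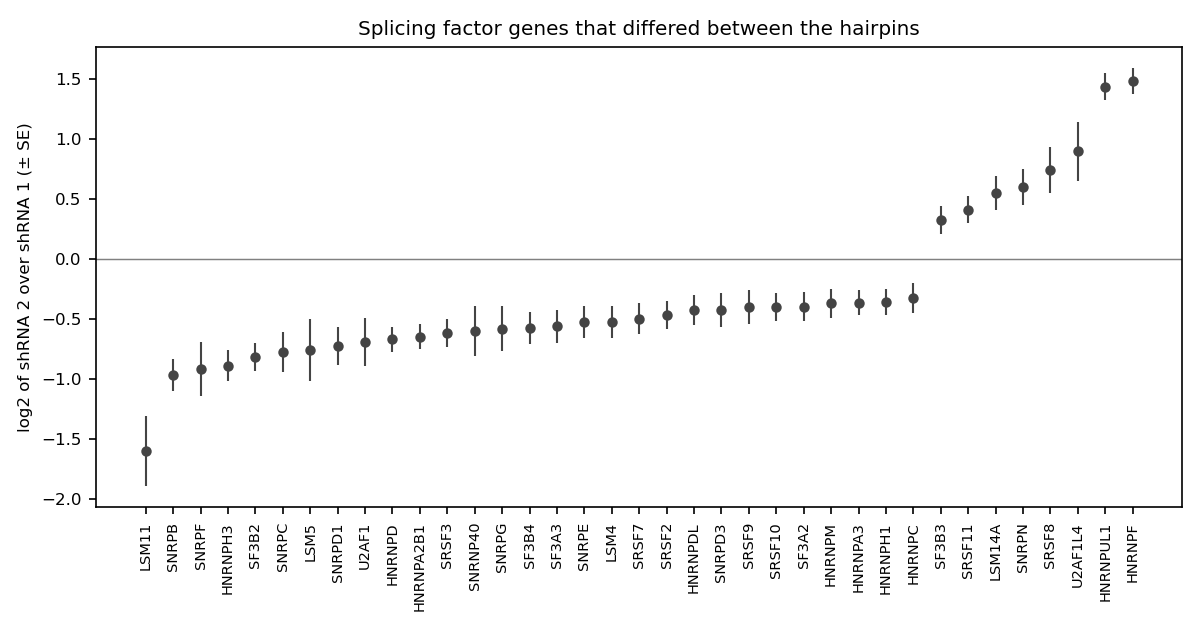
Log2 of the level with shRNA 2 over that with shRNA 1 (vertical axis, bars are SE from both deposited SEs) for 37 of the 38 splicing factor genes with a z test adjusted p below 0.05. In all, 29 genes lie below 0, from LSM11 at -1.60 to HNRNPC at -0.32, and 8 above, from SF3B3 at 0.33 to HNRNPF at 1.49.

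Other splicing genes outside the symbol rule were counted in 7 lists. They held 171 tested genes, of which 12 were higher and 26 lower with shRNA 1 (22.2% called) and 16 higher and 43 lower with shRNA 2 (34.5% called), per the authors' deposited tables. For comparison, 24.6% of everything tested was called with shRNA 1 and 29.0% with shRNA 2. Restricted to a mean of 1000 or more, these backgrounds were 39.4% and 46.9%. The listed genes had a median mean of 1837 but were not restricted by mean. Their shares are therefore not directly comparable with the abundant background. Between the hairpins, 21 of the 171 were higher (12.3%) and 27 lower (15.8%) with shRNA 2 than with shRNA 1 in the z test, against 10.1% and 13.8% of all genes. Among 18 SR protein kinases and partners, 0 were higher and 3 lower with shRNA 1 (16.7% called). With shRNA 2, 2 were higher and 6 lower (44.4% called). SRPK1 and SRPK2, which phosphorylate SR proteins, were lower in both of the authors' deposited tables, SRPK1 at -1.10 ± 0.10 and -0.38 ± 0.10 and SRPK2 at -0.39 ± 0.10 and -0.76 ± 0.10. CLK4 was at -0.32 ± 0.16 with shRNA 1, not passing, and at 0.45 ± 0.16 with shRNA 2.

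Of 25 splice site recognition factors, 5 were higher and 3 lower with shRNA 1 (32.0% called). With shRNA 2, 6 were higher and 4 lower (40.0% called). For this list and those below, the shares of all genes called were 24.6% with shRNA 1 and 29.0% with shRNA 2. By direction they were 9.80% higher and 14.8% lower with shRNA 1, and 10.9% and 18.1% with shRNA 2. LUC7L3 and SF1, the branch point binding protein, were higher in both of the authors' deposited tables, LUC7L3 at 0.31 ± 0.07 and 0.34 ± 0.07 and SF1 at 0.20 ± 0.08 and 0.22 ± 0.08. RBM39 passed in opposite directions, at -0.25 ± 0.08 and 0.22 ± 0.08. With no filter on low genes, the calls of SF1 with shRNA 1 and of RBM39 with shRNA 2 were lost. Of 34 rows for alternative splicing regulators, 1 was higher and 5 lower with shRNA 1 (17.6% called). With shRNA 2, 3 were higher and 13 lower (47.1% called). KHSRP passed in opposite directions, at 0.27 ± 0.07 and -0.43 ± 0.07 in the authors' deposited tables. PTBP3 and RBM15 each passed with 1 hairpin, PTBP3 at -0.57 ± 0.11 with shRNA 2 and RBM15 at -0.69 ± 0.14 with shRNA 1.

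Of 43 helicases and scaffolds of the spliceosome, 4 were higher and 5 lower with shRNA 1 (20.9% called), per the authors' deposited tables. With shRNA 2, 2 were higher and 10 lower (27.9% called), close to the share of all genes. SYF2 was higher in both, at 0.40 ± 0.13 and 0.47 ± 0.13, and the helicases DDX39A and DDX46 were lower with shRNA 2, at -0.49 ± 0.10 and -0.38 ± 0.09. The exon junction complex and mRNA export list of 24 genes had 1 higher and 4 lower with shRNA 1 (20.8% called). With shRNA 2 it had 2 higher and 6 lower (33.3% called). Its export adaptor ALYREF was lower in both, at -0.48 ± 0.11 and -0.48 ± 0.11 in the authors' deposited tables, and RBM8A was lower with shRNA 2, at -0.37 ± 0.10, whereas UPF1 passed in neither. Recentred, RBM8A also passed as higher with shRNA 1.

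Of 22 rows for factors that assemble snRNPs, 1 was higher and 5 lower with shRNA 1 (27.3% called), per the authors' deposited tables. With shRNA 2, 1 was higher and 3 lower (18.2% called), below the share of all genes. Near-identical genes stand on the 2 rows with the symbol SMN1, which had log2 fold changes of -1.76 ± 0.23 and -1.27 ± 0.20 (SE) with shRNA 1, both passing, and of -0.45 ± 0.22 and -0.25 ± 0.19 with shRNA 2, neither passing. USB1, an exonuclease that trims U6 snRNA, passed in opposite directions, at -1.03 ± 0.14 and 0.54 ± 0.14 in the authors' deposited tables. PHAX, the export adaptor of snRNA, was lower in both, at -0.33 ± 0.11 and -0.73 ± 0.11. Among 5 further genes of the minor spliceosome, PDCD7 was lower with shRNA 1 at -1.06 ± 0.14 and ZCRB1 with shRNA 2 at -0.56 ± 0.18, and ZMAT5 passed in neither.

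Proliferation genes are given beside these counts. Of 20 such genes, 9 were lower and 1 higher with shRNA 1. Their median log2 fold change there was -0.35, while that of the members was 0.05. With shRNA 2, 19 were lower and 0 higher, with a median of -1.72, per the authors' deposited tables. The background of lower calls was 14.8% with shRNA 1 and 18.1% with shRNA 2. The members' median with shRNA 2 was -0.21. Any part of the proliferation genes in the lower splicing factor genes was not tested.

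**Figure D5:**
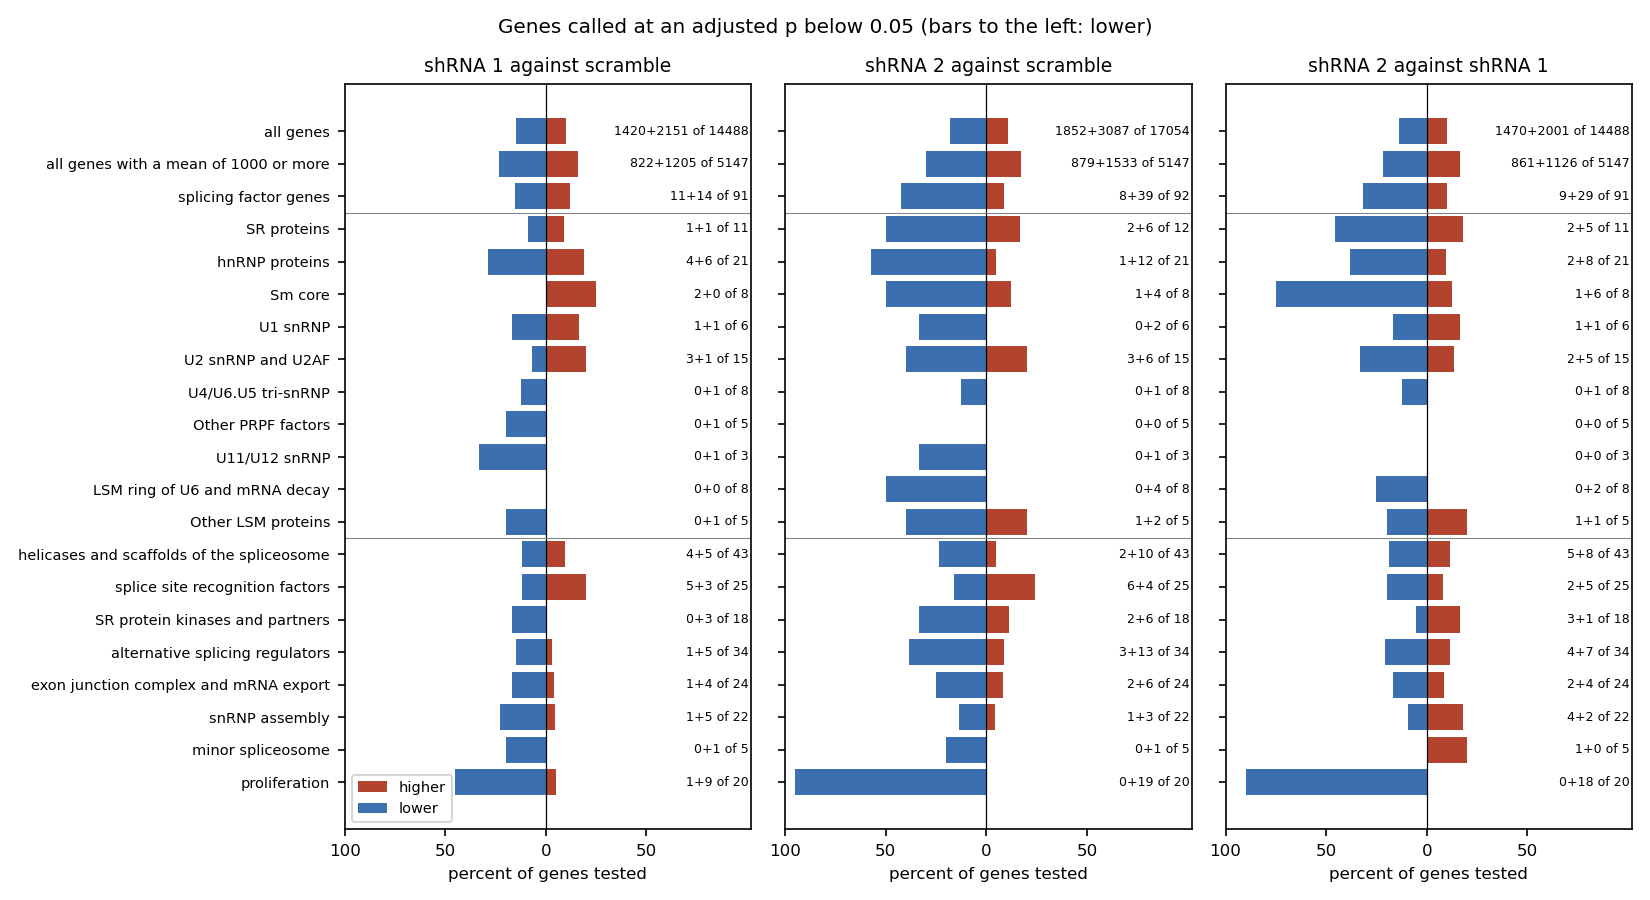
Percent of tested genes called at an adjusted p below 0.05 (horizontal axis; lower to the left in blue, higher to the right in red), with the numbers higher, lower and tested beside each bar, for all genes, the classes of splicing factors and the lists of other genes, in the 3 comparisons. With shRNA 2 the bar of lower splicing factor genes, 39 of 92, is longer than that of all genes, 3087 of 17054, and the Sm core has 6 of 8 genes lower with shRNA 2 than with shRNA 1.

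The annotation showed a feature that the symbol rule did not use. All 12 SR genes have at least 1 transcript annotated as a target of nonsense-mediated decay in GENCODE 29, against 13 of 21 hnRNP genes, 2 of 8 Sm genes and 2 of 8 tri-snRNP genes. Over the 92 protein-coding members the share was 56.5%, against 45.2% of the 11398 genes that code for protein and have a mean of at least 50. Transcripts with a retained intron were annotated for 59.8% of the members and 59.1% of those genes. Such annotation depends on how closely a gene has been studied. The gene-level tables hold no separate value for these transcripts.

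Levels of different genes were set side by side only per length, as the reconstructed scramble mean per 1000 bases of the longest principal transcript. On that scale the highest were HNRNPA1 at 6247, HNRNPK at 4870, LSM7 at 4693, HNRNPA2B1 at 4424 and SRSF1 at 4242 normalised reads. PRPF8 was at 1687 and SF3B1 at 1197, and LSM11 was at 57.0. SRSF12 had the lowest level of the classed members, at 3.45. The length of the transcripts that these cells use is not known from the tables, so the order of close neighbours is uncertain.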

How the data were processed

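RNA-seq was made from MM.1S cells in 3 groups of 2 libraries. Per the submitters' processing notes, reads were quantified with Salmon 0.12.0 and compared with DESeq2 1.24.0 on GRCh38 (hg38). The deposited tables, 1 for each hairpin against scramble, give the mean normalised count as a signal, the log2 fold change with its SE on the log2 scale, the Wald score, and the p-value with its adjusted p, all made by the authors. The mean was identical in both tables for 33095 genes, so both come from 1 fit. Here a call is the authors' adjusted p below 0.05. Group means were reconstructed from the deposited mean and both fold changes. The hairpins were compared by a z test on the difference of the deposited log2 fold changes, with an SE from both SEs, which is too large because scramble is shared, and Benjamini-Hochberg adjustment over 14488 genes, after tests on simulated data (Python 3.11.15, scipy 1.17.1). Exons, transcripts and coordinates come from GENCODE 29 and promoters from RefSeq, searched for 10 motifs. The members, classes and lists were chosen with earlier results of these data known. Genes named in full were IRF3, members passing in both tables, per class the most abundant and the 2 with the lowest p per table, the 6 higher and 6 lower members with the lowest p between hairpins, 14 preset members, and up to 3 genes per list of other splicing genes. Other members were named to account for all of them, after their values were seen. The values of 1 member and 1 cell type marker are not reported here, though the member stays in the counts. Whether counting used strand is not given in the sources.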

Additional observations from a re-analysis of the deposited data

Results flagged for a closer look

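The log2 difference between the hairpins, shRNA 2 over shRNA 1, passed the z test adjusted over all genes for 25 of the splicing factor genes named in full. Of these, 18 were negative and 7 positive. Some genes were named for a low p in this same test, so the count of 25 is partly set by that choice. Over all tested members, 38 of 91 passed (41.8%, against 24.0% of all genes). The 2 genes with differences above 1 were hnRNPs, HNRNPF at 1.49 and HNRNPUL1 at 1.44, and both were low with shRNA 1. The difference of LSM11, of the U7 snRNP, was -1.60 and came from a low level with shRNA 2. Among Sm proteins the values were -0.97 for SNRPB, -0.73 for SNRPD1, -0.53 for SNRPE, -0.42 for SNRPD3 and 0.60 for SNRPN. In U1 and U2 snRNP they were -0.77 for SNRPC, -0.82 for SF3B2, -0.57 for SF3B4, 0.33 for SF3B3 and -0.69 for U2AF1, the last a gene with a near-identical copy in the table. The other hnRNPs were HNRNPH3 at -0.89, HNRNPD at -0.67 and HNRNPA2B1 at -0.65. SR genes stood at -0.62 for SRSF3, -0.50 for SRSF7, -0.46 for SRSF2, -0.40 for SRSF9, 0.41 for SRSF11 and 0.74 for SRSF8. SRSF2 and SRSF9 share 36.7% and 46.2% of their exon bases with a gene on the opposite strand. The remaining values were -0.60 for SNRNP40 of U5 snRNP, -0.52 for LSM4 and 0.55 for LSM14A. SNRPB2 and SNRPA1 did not pass in this comparison.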

How the results depend on the processing

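No paired analysis was possible because the tables hold no value of a single library, and for the same reason leaving out a library, a replicate block, and edgeR or DESeq2 on counts were not run. At a DESeq2 adjusted p below 0.01, the members higher with shRNA 1 were 7, the 7 being in a class, and of the other splicing genes 6 were higher with shRNA 1 and 10 with shRNA 2. Asking also for a fold change of at least 1.5 left 2 members higher and 3 lower with shRNA 1 and 3 higher and 12 lower with shRNA 2. Between the hairpins it left 5 higher and 13 lower, with the same counts in the classes. Of the other splicing genes it left 1 higher and 10 lower with shRNA 1, and 1 higher and 14 lower with shRNA 2. The members' totals at that fold were 5 of 91, 15 of 92 and 18 of 91 in the 3 comparisons. Those of all genes were 1579 of 14488, 2714 of 17054 and 2387 of 14488. With shRNA 2 the members' share at that fold was thus close to that of all genes. Without the authors' filter on low genes, 7 of the other splicing genes were higher with shRNA 1. Recentring on the median gene turned the sign of values near 0 that passed neither way. With shRNA 1 these were HNRNPA1 at 0.0321, SNRNP48 at 0.0261, PRPF39 at 0.0411, SRSF12 at 0.0216, SNRPD3 at 0.0006 and SRSF3 at 0.031, and with shRNA 2 they included PRPF4B at 0.0217, PRPF8 at 0.0155 and SRSF9 at 0.0099. It ended the calls of PRPF38A with shRNA 1 and of HNRNPL, SF3B3, SF3B4, SNRPA and SRSF1 with shRNA 2. It brought SNRPD2 and U2AF2 with shRNA 1, SRSF5 and LSM7 with shRNA 2, and SF3B1 with both past the threshold. Leaving out genes that share exons or have a near-identical copy, an alternative chosen after seeing the data, moved no member count by 1.5 times or more. Without single libraries, the spread within a group is known only through the deposited SEs.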
